A study of Mus musculus with 18 samples.

Results

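The hepatic response to ethanol in the absence of apolipoprotein E was described from 9 livers of *Apoe* KO mice, 4 EtOH-fed and 5 pair-fed, among the 18 livers sequenced. These are all the mice of the series labelled *Apoe* KO, and they were taken by genotype and diet without regard to any measured value. All 15052 genes of the deposited table are covered. The other 9 mice, 4 pair-fed and 5 EtOH-fed C57BL/6J WT mice, are used only where the response of the KO mice was set against that of WT mice.

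Both *Apoe* KO groups carried the same whole-body knockout, bought as an established line, and were 10–12 weeks old. After 5 days on the liquid control diet, the EtOH-fed mice were given 5% (v/v) ethanol in that diet for 10 days and received 5 g/kg ethanol by gavage on day 11. The pair-fed mice received an isocaloric diet without ethanol and a gavage of 9 g/kg dextrin-maltose. Livers were taken 9 h after the gavage, so that each value holds the chronic feeding and the binge together. The labels list every mouse as female, whereas the methods of the study name mice of either sex. The EtOH-fed mice of this genotype are numbered 1, 2, 4 and 5 and the pair-fed ones 1 to 5, and values are given below in that order.

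ApoE is a ligand on lipoproteins through which the liver clears cholesterol-rich remnants, and it is made by hepatocytes and by macrophages. Hepatocytes oxidize ethanol to acetaldehyde and on to acetate, a process that shifts their redox state and burdens the folding of proteins in the endoplasmic reticulum (ER). Chronic-plus-binge feeding is used as a model of early alcohol-associated hepatitis, with fat stored in hepatocytes and inflammatory cells in the sinusoids.

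The values are read counts per gene that the authors had brought to almost the same total in each mouse and rounded, and they are called scaled read counts here. The spacing of the low values gave an estimate of the reads on genes in 8 of the 9 *Apoe* KO mice, from 7880000 to 45900000 in EtOH-fed and from 8520000 to 44200000 in pair-fed mice. A value of 1 read was worth 4.1 scaled counts in the shallowest of these libraries, so that small differences among low values were not detectable there. *Apoe* itself was at 8586 to 108651 in pair-fed and 12041 to 61572 in EtOH-fed *Apoe* KO mice, against 611230 to 798431 in WT mice. A library went against its label. In the library labelled EtOH-fed *Apoe* KO mouse 1, *Xist*, the RNA of the inactive X chromosome, was at 826, against 15227 to 24027 in the other *Apoe* KO mice. The Y-linked *Ddx3y* and *Eif2s3y* were at 1077 and 898 in that library and at no more than 118 and 86 in the others. Counts over all genes are therefore also given without it, as are those of several gene lists, including each list whose count moved by over 1.5 times.

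The diet parted the *Apoe* KO mice along the main axis of variation. When the 500 genes with the highest variance entered a principal component analysis, PC1 held 38.2% of the variance. PC1 scores ran from −32.5 to −11.4 in pair-fed and from 5.73 to 42.6 in EtOH-fed mice, and the groups did not overlap (two-sided exact permutation test, p = 0.0159, the smallest that 4 mice against 5 allow). The library labelled EtOH-fed mouse 1 had the EtOH-fed score nearest to the pair-fed mice. PC2 held 19.2% and set apart pair-fed mouse 1 (−32.4) and EtOH-fed mouse 4 (−25.2), while the other mice lay between 1.9 and 17.9. Both mice also had the outermost PC1 scores (−32.5 and 42.6). Their libraries were the shallowest of their groups with a depth estimate, with 1 read worth 3.79 and 4.1 scaled counts. They also had the most genes at 0 (141 and 125). EtOH-fed mouse 5 was nearly as shallow (3.85, with 68 genes at 0) and lay at 17.9 on PC2. Whether depth shaped either axis was not tested.

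Ethanol raised 2446 genes and lowered 1042 in *Apoe* KO liver (limma on log2(value + 1), adjusted p under 0.05), which is 16.3% and 6.92% of all genes tested. Counts of risen and fallen members of the gene lists below stand against these shares. A change beyond 2-fold was seen in 755 of the higher and 252 of the lower genes (5.02% and 1.67% of all genes). Without the library labelled EtOH-fed mouse 1 there were 2377 higher and 943 lower genes (15.8% and 6.26%), of which 2083 and 863 were among the genes above. The median log2 fold change of all genes was not 0 but 0.13, and higher genes made up 70.1% of the calls. With median-of-ratios size factors, which set that median to 0, 1646 genes (10.9%) were higher and 1616 (10.7%) lower, so that higher genes made up 50.5%. No call changed its direction between the scalings, but a log2 change close to 0.13 has no sign that holds under both. The 4 EtOH-fed and 5 pair-fed values did not overlap in 3011 genes (20% of all). These counts are shown in the plot of all genes by fold change and adjusted p.

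**Figure D1:**
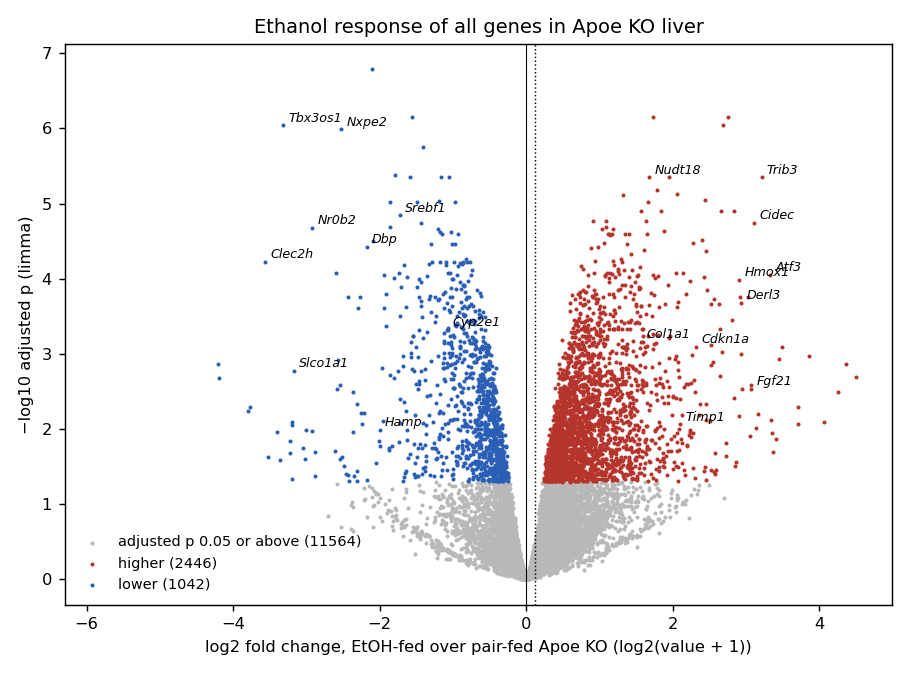
Each point is 1 of 15052 genes, with the log2 fold change of EtOH-fed over pair-fed *Apoe* KO mice on the x axis and −log10 of the adjusted p (limma) on the y axis. Red points are the 2446 higher and blue points the 1042 lower genes, and the dotted line marks the median of all genes at 0.13. The labels name genes described in the text, and the unlabelled genes beyond a change of 4 had low values.

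Among genes with a mean of at least 100 in either group and no overlap, the 10 with the largest rise were *Api5-ps*, *Acan*, *Sprr1a*, *Atf3*, *Trib3*, *Cidec*, *Fgf21*, *Dhrs9*, *Derl3* and *Nrg1*. *Atf3* (GENCODE M21 position on GRCm38 chr1:191170296-191218039) codes for a transcription factor induced by cell stress. It was at 284, 76, 218, 306 and 85 in pair-fed and at 1433, 2265, 1981 and 1223 in EtOH-fed mice. The rise was 3.33 on the log2 scale with a standard error of 0.39 (adjusted p = 8.9e-05). *Trib3* (chr2:152337422-152344032), a pseudokinase gene of the same stress pathway, was at 542, 388, 318, 488 and 187 in pair-fed and at 2904, 3576, 3893 and 3126 in EtOH-fed mice. The spread within each group was small beside the difference (log2 fold change 3.21, standard error 0.24, adjusted p = 4.45e-06). *Cidec* (chr6:113424634-113435760), which codes for a protein that enlarges lipid droplets, was at 269, 169, 212, 222 and 182 in pair-fed and at 1734, 3380, 888 and 2042 in EtOH-fed mice (log2 fold change 3.11, adjusted p = 1.82e-05). The hepatokine gene *Fgf21* (chr7:45613886-45615490) was at 76, 338, 128, 100 and 136 in pair-fed and at 434, 723, 5936 and 915 in EtOH-fed mice. EtOH-fed mouse 4 stood far above the rest of its group, and the log2 fold change was 3.07 with a standard error of 0.61 (adjusted p = 0.00294).

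*Derl3* (chr10:75893413-75895941), whose product helps to clear misfolded proteins from the ER, was at 95, 229, 151, 55 and 201 in pair-fed and at 1733, 1010, 569 and 980 in EtOH-fed mice (log2 fold change 2.93, adjusted p = 0.000208). *Nrg1*, a growth factor gene, and *Dhrs9*, a retinol dehydrogenase gene, rose by 2.92 and 3.02 on the log2 scale (adjusted p = 0.000173 and 0.000174). *Acan*, a proteoglycan of cartilage, and *Sprr1a*, an epithelial stress protein, rose from means of 10.8 and 21 to 160 and 196. Both are scarce, as is *Dhrs9*, at 8, 10, 8, 14 and 18 in pair-fed and at 65, 122, 131 and 85 in EtOH-fed mice, and their pair-fed values correspond to a few reads in the shallow libraries. *Api5-ps* is annotated as a pseudogene, and reads of its parent gene could have been counted on it, which leaves its rise of 3.87 uncertain.

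By the same rule, the 10 largest falls were *Clec2h*, *Tbx3os1*, *Slco1a1*, *Nr0b2*, *1700028E10Rik*, *Nxpe2*, *A930033H14Rik*, *AC127342.1*, *Rnf186* and *Dlec1*. *Slco1a1* (chr6:141907282-141946962), an uptake carrier for organic anions and bile acids, was at 2248, 8756, 1521, 2647 and 5729 in pair-fed and at 473, 869, 98 and 496 in EtOH-fed mice. Pair-fed mice varied widely among themselves, and the absence of overlap was a condition of this list (log2 fold change −3.17, standard error 0.57, adjusted p = 0.00169). *Nr0b2* (chr4:133553376-133556536), which codes for the nuclear receptor SHP, the repressor of bile acid synthesis, was at 1039, 451, 1407, 746 and 789 in pair-fed and at 107, 81, 147 and 108 in EtOH-fed mice (log2 fold change −2.92, adjusted p = 2.08e-05). The transcript *Tbx3os1*, named for its position opposite *Tbx3*, was at 944, 1077, 1438, 1249 and 1406 in pair-fed and at 134, 98, 86 and 185 in EtOH-fed mice (log2 fold change −3.32, adjusted p = 9.11e-07). Counting by strand is not stated in the sources used here, so reads of overlapping genes cannot be told apart. *Tbx3*, looked at for this reason after its values were seen, had a log2 fold change of −0.33 (adjusted p = 0.109, and 0.0237 with median-of-ratios size factors). *Clec2h*, a C-type lectin gene, was at 118, 109, 148, 93 and 150 in pair-fed and at 6, 5, 16 and 15 in EtOH-fed mice (log2 fold change −3.57, adjusted p = 5.93e-05). *Nxpe2*, *Rnf186* and *Dlec1* fell by 2.53, 2.27 and 2.25 on the log2 scale (adjusted p = 1.02e-06, 0.000173 and 0.00612). With voom on estimated reads *Dlec1* did not pass (0.128).

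**Figure D2:**
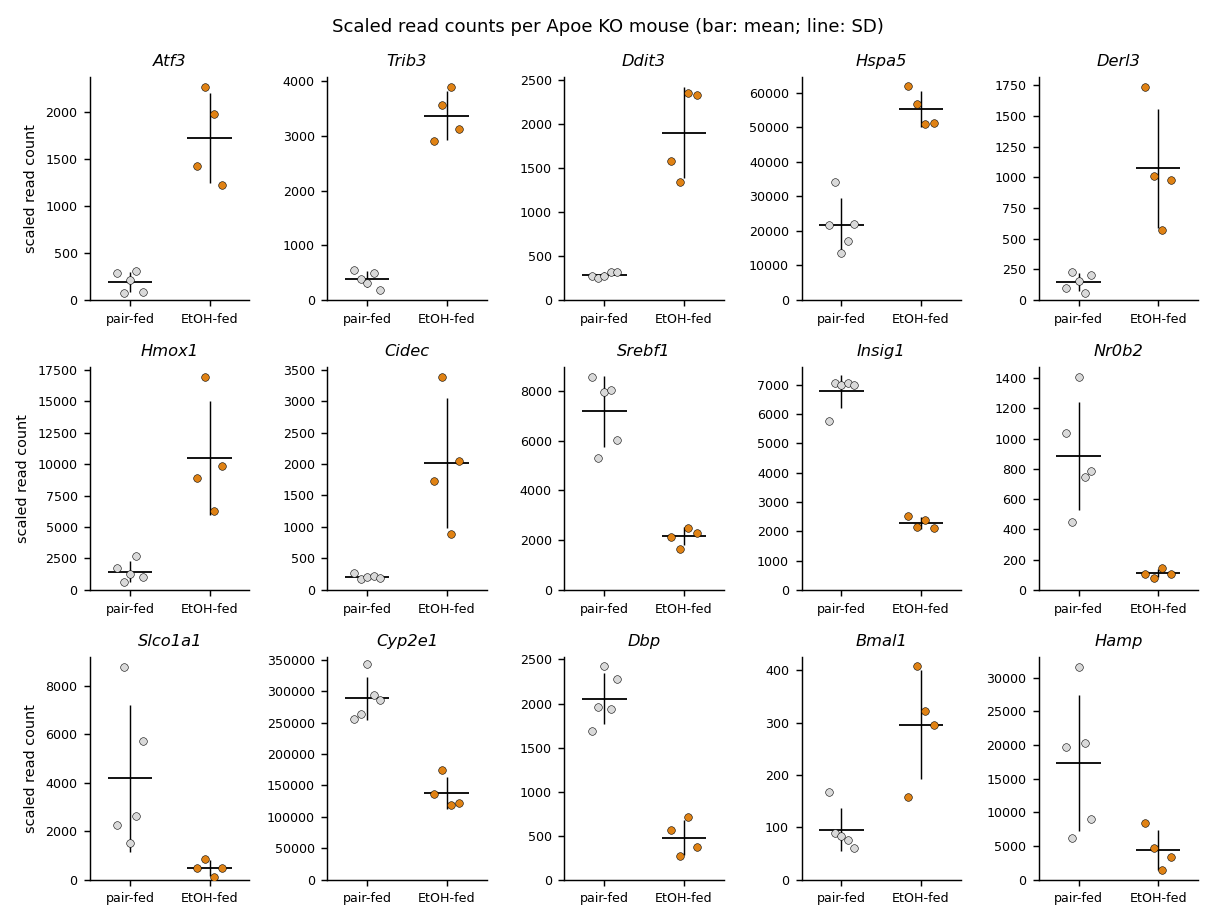
Scaled read counts in each *Apoe* KO mouse for 15 genes, pair-fed in grey (n = 5) and EtOH-fed in orange (n = 4), on axes that start at 0, with the mean as a horizontal bar and the SD as a vertical line. The groups do not overlap except for *Bmal1* and *Hamp*, where 1 EtOH-fed value lies within the pair-fed range.

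Genes of the unfolded protein response and the integrated stress response rose in most of the members examined. These pathways detect misfolded protein in the ER, or a shortage of amino acids, and raise chaperones, amino acid enzymes and the factors ATF4, CHOP and ATF3. Of 43 tested members, 30 rose, 2 fell and 11 did not pass, with a median log2 fold change of 0.75 against 0.13 for all genes. The counts were 30 and 2 without the library labelled EtOH-fed mouse 1, and 29 and 3 with median-of-ratios size factors. The ER chaperone *Hspa5* was at 21668, 34216, 13486, 17214 and 22032 in pair-fed and at 62093, 56736, 51042 and 51139 in EtOH-fed mice (log2 fold change 1.41, standard error 0.20, adjusted p = 0.000378). *Ddit3*, which codes for the factor CHOP, was at 273, 247, 278, 316 and 316 in pair-fed and at 1581, 1334, 2354 and 2330 in EtOH-fed mice (log2 fold change 2.69, adjusted p = 9.11e-07). In both genes every EtOH-fed mouse was higher than every pair-fed mouse. *Atf4*, which codes for the central factor of the integrated stress response, rose by 0.75 on the log2 scale (adjusted p = 6.76e-05). The members that fell were *Herpud1* (−0.41, adjusted p = 0.0111) and *Shmt2* (−0.33, adjusted p = 0.0161, and 0.0509 without EtOH-fed mouse 4).

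Elements bound by factors of these pathways are known, and the stretches below are shown because they place such an element beside the response of each gene. Their genes are named for the element and were picked after their values were seen. Sequences are from RefSeq for GRCm38.p6, in the 250 bases before and 50 after each start site, and 10734 of the tested genes have such an entry. The ER stress element was searched as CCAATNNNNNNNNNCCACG on both strands. It stands in the promoters of 21 genes (0.196% of the 10734), among them 9 of the 39 list members with an entry, of which 5 rose and none fell, although *Canx* fell with median-of-ratios size factors. The C/EBP-ATF element, searched as TTGCATCA on both strands, stands in 0.773% of the genes and in 5 of the 39 members, of which 3 rose and 1 fell. Capitals mark the element, and each stretch is written 5′ to 3′ on the strand of its gene. The first set holds genes with the ER stress element that rose.
Hspa5, chr2:34772005-34772063, plus strand: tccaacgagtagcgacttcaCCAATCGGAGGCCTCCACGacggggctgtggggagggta
Creld2, chr15:88819500-88819558, plus strand: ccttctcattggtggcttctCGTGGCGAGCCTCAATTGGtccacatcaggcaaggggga
Derl3, chr10:75893222-75893280, plus strand: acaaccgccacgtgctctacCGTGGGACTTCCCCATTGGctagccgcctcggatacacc
Syvn1, chr19:6046512-6046570, plus strand: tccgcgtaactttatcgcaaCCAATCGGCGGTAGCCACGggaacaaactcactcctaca

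*Creld2* and *Syvn1*, an ER chaperone and an ER ubiquitin ligase gene, rose by 1.71 and 1.13 on the log2 scale (adjusted p = 0.000313 and 0.000472), and *Hspa5* and *Derl3* by 1.41 and 2.93 as given above. The next stretches hold the same element before genes that did not pass the test, the lectin chaperone *Canx* (−0.18, adjusted p = 0.212, and lower at 0.0429 with median-of-ratios size factors), the co-chaperone *Dnajc3* (0.17, adjusted p = 0.302) and the disulfide isomerase *Pdia6* (0.08, adjusted p = 0.632).
Canx, chr11:50325780-50325838, minus strand: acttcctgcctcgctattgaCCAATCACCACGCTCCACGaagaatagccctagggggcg
Dnajc3, chr14:118937807-118937865, plus strand: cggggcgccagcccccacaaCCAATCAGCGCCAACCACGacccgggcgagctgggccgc
Pdia6, chr12:17266471-17266529, plus strand: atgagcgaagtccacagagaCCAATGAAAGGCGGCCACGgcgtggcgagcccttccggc

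The last set holds the C/EBP-ATF element. *Atf3* and *Fgf21* rose as described, and *Nupr1*, a stress factor gene, was at 235, 184, 146, 216 and 203 in pair-fed and at 1468, 1196, 1601 and 1069 in EtOH-fed mice (log2 fold change 2.75, adjusted p = 7.12e-07). *Chac1*, which degrades glutathione, has the same 8 bases and a log2 fold change of −0.63 (adjusted p = 0.359). It passed as lower without EtOH-fed mouse 4 (−1.30, adjusted p = 0.00306) and with voom (0.0436). *Herpud1* fell, as given above.
Atf3, chr1:191183416-191183463, minus strand: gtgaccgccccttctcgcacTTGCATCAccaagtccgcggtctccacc
Nupr1, chr7:126625553-126625600, minus strand: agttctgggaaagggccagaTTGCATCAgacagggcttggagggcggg
Fgf21, chr7:45615602-45615649, minus strand: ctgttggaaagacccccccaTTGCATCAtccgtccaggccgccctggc
Chac1, chr2:119351029-119351076, plus strand: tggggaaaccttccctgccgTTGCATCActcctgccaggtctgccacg
Herpud1, chr8:94386297-94386344, plus strand: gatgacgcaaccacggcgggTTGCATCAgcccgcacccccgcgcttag

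The C/EBP-ATF element was thus present in members that rose, in a member that fell and in a member that did not pass the test. The ER stress element was present in members that rose and in members that did not pass. A match of letters is a description of the promoter, and binding was not measured.

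Genes of the NRF2 pathway, which protects against oxidants and electrophiles through glutathione and NADPH, rose in 20 of 36 members, fell in 3 and had a median log2 fold change of 0.49. Without the library labelled EtOH-fed mouse 1 the counts were 19 and 2, and with median-of-ratios size factors 15 and 4. The heme oxygenase gene *Hmox1* was at 1718, 661, 1234, 2709 and 990 in pair-fed and at 8874, 16897, 6260 and 9812 in EtOH-fed mice, with no overlap (log2 fold change 2.91, standard error 0.34, adjusted p = 0.000103). The sulfiredoxin gene *Srxn1* rose by 2.28, *Ugdh*, which supplies glucuronic acid, by 1.31 and the quinone reductase *Nqo1* by 0.94 on the log2 scale (adjusted p = 3.39e-05, 5.93e-05 and 0.00474). *Gclc*, the catalytic subunit of glutathione synthesis, had a log2 fold change of 0.35 (adjusted p = 0.0742, and 0.0417 without that library), and its partner *Gclm* fell by 0.29 (adjusted p = 0.0288, and 0.05 to 0.0683 without any one of pair-fed mice 1, 2 and 5, EtOH-fed mouse 2 or that library). *Gsta* and *Gstm* genes are near-identical copies, among which reads could have been split. Of 21 heat shock chaperones of the cytosol and mitochondria, 5 rose (23.8%, against 16.3% of all genes) and 1 fell (4.76%, against 6.92%), with a median of 0.10. With median-of-ratios size factors 2 rose, 1 fell and the median was −0.02, and none fell without the library labelled EtOH-fed mouse 1.

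Lipid genes moved in different directions. Of 32 genes of lipogenesis and lipid droplets, 8 rose and 6 fell. *Cidec*, described above, had the lowest p among those that rose. The droplet coat gene *Plin2* was at 17680, 15270, 22173, 22332 and 13342 in pair-fed and at 37337, 55765, 39444 and 34632 in EtOH-fed mice (log2 fold change 1.21, standard error 0.17, adjusted p = 0.000361). *Fabp4*, a fatty acid carrier of adipocytes and macrophages, rose by 1.58 on the log2 scale (adjusted p = 0.000464). By contrast, *Srebf1*, which codes for the factor that drives fatty acid synthesis, was at 8557, 5295, 7970, 8054 and 6023 in pair-fed and at 2142, 1661, 2497 and 2307 in EtOH-fed mice (log2 fold change −1.73, adjusted p = 1.44e-05). The hepatic fatty acid carrier *Fabp1* and the carbohydrate sensor *Mlxipl* fell by 0.95 and 0.87 (adjusted p = 0.000387 and 0.00282). *Fasn* and *Acaca*, the enzymes of fatty acid synthesis, had log2 fold changes of −0.76 and −0.34 and did not pass (adjusted p = 0.0817 and 0.358). *Fasn* passed as lower with median-of-ratios size factors (0.0356), without pair-fed mouse 3 (0.0473) and without EtOH-fed mouse 4 (0.0398).

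Transcripts of cholesterol synthesis were lower in many of the genes examined. Of 25 genes of this pathway and other SREBP2 targets, 15 fell and none rose, and the median log2 fold change was −0.64. There were 13 falls without the library labelled EtOH-fed mouse 1 and 18 with median-of-ratios size factors, again with no rise. *Insig1*, whose product retains the SREBP complex in the ER, was at 5748, 7042, 6986, 7059 and 7000 in pair-fed and at 2537, 2141, 2374 and 2119 in EtOH-fed mice, without overlap (log2 fold change −1.56, standard error 0.09, adjusted p = 7.12e-07). The sterol carrier gene *Stard4* fell by 1.29 (adjusted p = 5.93e-05). *Srebf2* itself had a log2 fold change of −0.24 (adjusted p = 0.111, and 0.0291 with median-of-ratios size factors), and the squalene epoxidase *Sqle* one of −0.36 (adjusted p = 0.323).

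Of 40 genes of fatty acid oxidation and other PPAR-alpha targets, 3 rose and 10 fell, with a median of −0.18. *Ppara* fell by 0.65 (adjusted p = 0.00278). The thioesterases *Acot3* and *Acot2* went in opposite directions, with log2 fold changes of −1.5 and 1.62 (adjusted p = 0.000804 and 0.00148). *Cpt1a*, the gate of mitochondrial import, had a log2 fold change of −0.19 and *Acadm* one of −0.18, and neither passed (adjusted p = 0.339 and 0.208). Among 25 apolipoprotein and lipoprotein genes, 3 rose and 6 fell. *Apoa4* rose by 1.82, whereas the sterol exporter genes *Abcg5* and *Abcg8* fell by 1.21 and 1.17 (adjusted p = 0.000241, 2.2e-05 and 2.38e-05). *Apob* and *Mttp*, which are needed to assemble VLDL, had log2 fold changes of −0.03 and 0.04 (adjusted p = 0.884 and 0.804).

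**Figure D3:**
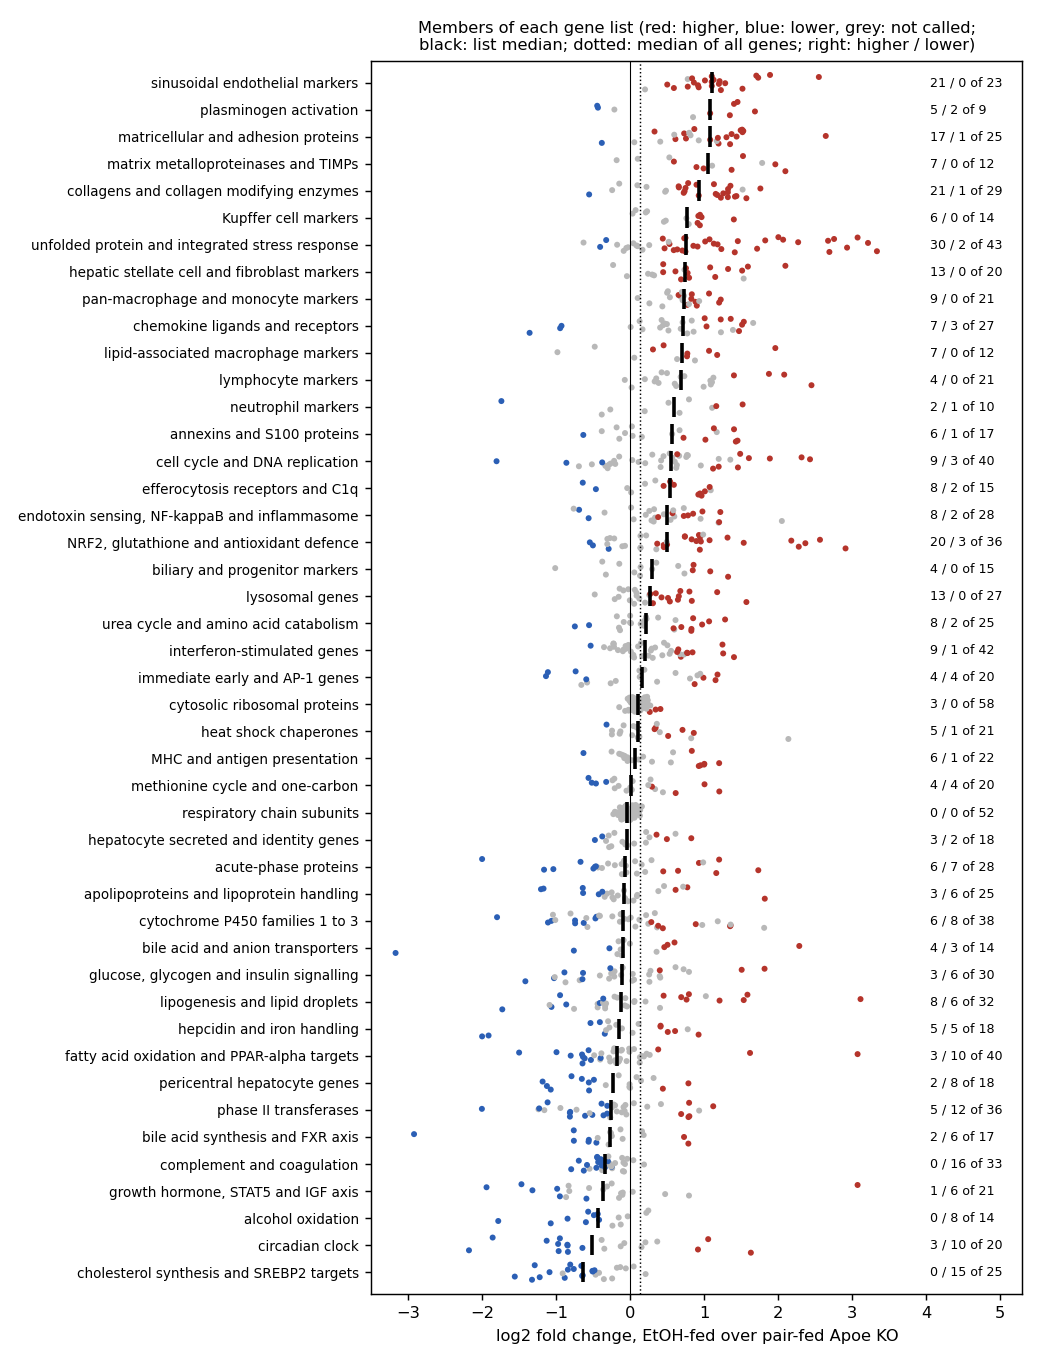
Each point is a member of a gene list, placed by its log2 fold change of EtOH-fed over pair-fed *Apoe* KO mice, in red where it rose, blue where it fell and grey where it did not pass. Black bars are list medians, the dotted line is the median of all genes at 0.13, and the numbers at the right are the risen and fallen members of those tested. Sinusoidal endothelial markers have the highest median (1.10) and cholesterol synthesis genes the lowest (−0.64) among the lists shown, which are those with at least 9 tested genes.

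Transcripts of the enzymes that oxidize ethanol fell or did not pass. Of 14 tested, 8 fell and none rose, with a median of −0.43. *Cyp2e1*, the ethanol-oxidizing cytochrome of the ER, was at 255301, 264195, 342807, 293727 and 286452 in pair-fed and at 136346, 174913, 118964 and 121368 in EtOH-fed mice, and every EtOH-fed mouse was lower than every pair-fed mouse (log2 fold change −1.07, standard error 0.16, adjusted p = 0.000476). *Adh4*, a class II alcohol dehydrogenase, fell by 1.78 and catalase (*Cat*) by 0.60 (adjusted p = 4.16e-06 and 0.000776). *Adh1* and *Aldh2*, the main hepatic dehydrogenases of ethanol and acetaldehyde, had log2 fold changes of −0.24 and −0.13 (adjusted p = 0.163 and 0.451).

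In bile acid synthesis 2 of 17 genes rose and 6 fell, and *Cyp7a1*, the first enzyme of the main route, had a log2 fold change of −0.29 (adjusted p = 0.0791). With median-of-ratios size factors 1 gene rose and 10 fell, *Cyp7a1* among them (adjusted p = 0.0307), as also without pair-fed mouse 5 (0.0251), and 1 rose and 7 fell without the library labelled EtOH-fed mouse 1. *Cyp27a1* fell by 0.46 (adjusted p = 0.00462). Of 14 transporters of bile acids and anions 4 rose and 3 fell, and with median-of-ratios size factors 2 rose and 4 fell. The export pump *Abcc4* rose by 2.28 on the log2 scale (adjusted p = 0.0022), beside the fall of *Slco1a1*. Of 38 cytochromes of families 1 to 3, 6 rose (15.8%, against 16.3% of all genes) and 8 fell (21.1%, against 6.92%), and with median-of-ratios size factors 3 rose and 10 fell. *Cyp2a5* rose by 1.35, *Cyp2c29* rose by 0.88 and *Cyp2c67* fell by 1.07 (adjusted p = 0.00558, 0.0117 and 0.00045), although the *Cyp2c* genes are close copies among which reads could have been split. *Cyp2b10*, a target of the receptor CAR, was at 455, 38, 120, 333 and 27 in pair-fed and at 125, 449, 512 and 907 in EtOH-fed mice. The groups overlapped and the log2 fold change of 1.81 did not pass (adjusted p = 0.106). Without the library labelled EtOH-fed mouse 1, which had the lowest EtOH-fed value, it was 2.37 and passed (adjusted p = 0.0462), as it did without pair-fed mouse 1 (2.31, adjusted p = 0.0417). Phase II transferases rose in 5 of 36 genes (13.9%, near the 16.3% of all genes) and fell in 12 (33.3%, against 6.92%). Genes of pericentral hepatocytes, the zone around the central vein, rose in 2 of 18 and fell in 8 (1 and 9 with median-of-ratios size factors), among the latter *Rgn* (−1.18, adjusted p = 9.34e-06) and *Glul* (−0.56, adjusted p = 0.00244).

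Of 20 circadian clock genes, 3 rose and 10 fell. *Dbp*, an output gene of the clock, was at 1683, 1964, 2421, 1936 and 2276 in pair-fed and at 567, 275, 708 and 369 in EtOH-fed mice (log2 fold change −2.18, standard error 0.22, adjusted p = 3.74e-05). *Bmal1*, the driver of the opposite phase, was at 167, 90, 84, 76 and 61 in pair-fed and at 158, 408, 323 and 296 in EtOH-fed mice, where the lowest EtOH-fed value lay below the highest pair-fed value (log2 fold change 1.63, adjusted p = 0.00244). *Nr1d1* fell by 0.97 and *Per1* by 0.84 (adjusted p = 0.00493 and 0.00623). All livers were taken 9 h after the gavage, and the labels give no clock time. In the growth hormone axis 1 of 21 genes rose and 6 fell (2 and 5 without the library labelled EtOH-fed mouse 1), with *Igf1* at a log2 fold change of −0.15 (adjusted p = 0.549).

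For glucose and glycogen, 3 of 30 genes rose and 6 fell with the main scaling, and 2 rose and 13 fell with median-of-ratios size factors. The kinases found in other cells and in dividing hepatocytes, *Pkm* and *Hk1*, rose by 1.81 and 1.51 (adjusted p = 0.00131 and 0.00233). *Pck1*, which controls the making of new glucose, had a log2 fold change of −0.88 (adjusted p = 0.0526), and it passed as lower without the library labelled EtOH-fed mouse 1, pair-fed mouse 2 or EtOH-fed mouse 2 (0.0194 to 0.0422), with median-of-ratios size factors (0.0485), with all 4 groups in the fit (0.0287), with voom (0.0467) and with a mean of at least 100 (0.0492). Of 25 genes of the urea cycle and amino acid breakdown, 8 rose and 2 fell. *Cps1*, the entry enzyme of the urea cycle, rose by 0.82 and *Gldc*, of the glycine cleavage system, by 0.97 (adjusted p = 0.00392 and 0.000394). In the methionine cycle 4 of 20 genes rose (20%, near the 16.3% of all genes) and 4 fell (20%, against 6.92%). With median-of-ratios size factors 2 rose and 5 fell. *Bhmt*, which remethylates homocysteine, rose by 1.20 (adjusted p = 0.000173).

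Of 33 complement and coagulation genes, 16 fell and none rose, with a median of −0.34 (19 falls without the library labelled EtOH-fed mouse 1). *Serpind1*, heparin cofactor II, fell by 0.45 (adjusted p = 0.00289). *C9*, a component of the membrane attack complex, had the lowest log2 fold change of the list (−0.80, adjusted p = 0.00529), and *C3* had a log2 fold change of −0.08 (adjusted p = 0.744). Acute-phase genes went both ways, with 6 of 28 higher and 7 lower, and 4 higher and 9 lower with median-of-ratios size factors. *Lcn2*, lipocalin 2, was at 2260, 4671, 2812, 2419 and 2295 in pair-fed and at 8270, 4196, 6477 and 6633 in EtOH-fed mice (log2 fold change 1.16, adjusted p = 0.0021, and 0.0609 with all 4 groups in the fit). *Saa1* and *Saa2* had log2 fold changes of −0.11 and 0.09 (adjusted p = 0.871 and 0.901). In iron handling 5 of 18 genes rose and 5 fell, and with median-of-ratios size factors 3 rose and 6 fell. *Hamp*, which codes for the iron hormone hepcidin, was at 19757, 6261, 31579, 20269 and 9030 in pair-fed and at 8397, 4659, 1388 and 3445 in EtOH-fed mice (log2 fold change −2.0, standard error 0.49, adjusted p = 0.0102). The highest EtOH-fed value lay above the lowest pair-fed value, and the adjusted p was 0.0571 when all 4 groups entered the fit. The transferrin receptor gene *Tfrc* rose by 0.92 (adjusted p = 0.00149).

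In whole liver, more cells of a type and more RNA per cell cannot be told apart. Markers of liver sinusoidal endothelial cells, the fenestrated lining of the sinusoids, rose in 21 of 23 genes, with a median of 1.10 (20 without the library labelled EtOH-fed mouse 1, 20 with median-of-ratios size factors). Their summed values ran from 9295 to 13685 in pair-fed and from 17862 to 28481 in EtOH-fed mice, without overlap. The hyaluronan receptor *Lyve1* was at 262, 257, 198, 349 and 411 in pair-fed and at 655, 764, 753 and 1200 in EtOH-fed mice (log2 fold change 1.52, standard error 0.22, adjusted p = 0.000376). The junction gene *Pecam1* rose by 1.22, the von Willebrand factor gene *Vwf* by 1.89 and the orphan receptor *Gpr182* by 1.21 (adjusted p = 0.000961, 0.000216 and 0.000287). *Stab2* had a log2 fold change of 0.20 (adjusted p = 0.259). For hepatocytes, the summed values of 18 identity genes were 4174915 to 5280503 in pair-fed and 3725145 to 4535292 in EtOH-fed mice and overlapped. Albumin (*Alb*) had a log2 fold change of −0.29 and *Hnf4a* one of −0.04 (adjusted p = 0.502 and 0.874).

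Markers of hepatic stellate cells, the vitamin A-storing pericytes that make matrix in injury, rose in 13 of 20 genes and fell in none (median 0.74, and 12 without the library labelled EtOH-fed mouse 1). Their summed values were 19755 to 25717 in pair-fed and 29163 to 47611 in EtOH-fed mice. *Lrat*, which stores vitamin A, rose by 0.69 and the filament gene *Des* by 1.15 (adjusted p = 0.0206 and 0.00182), although *Lrat* did not pass without EtOH-fed mouse 4 or 5 (adjusted p = 0.0653 and 0.0522). The activation marker *Acta2* was at 99, 21, 50, 64 and 66 in pair-fed and at 34, 301, 184 and 319 in EtOH-fed mice. It varied among EtOH-fed mice and did not pass (log2 fold change 1.53, adjusted p = 0.0769), whereas without the library labelled EtOH-fed mouse 1, which had the lowest EtOH-fed value, the log2 fold change was 2.26 and passed (adjusted p = 0.00287). *Pdgfra*, a growth factor receptor of mesenchymal cells, was at 159, 309, 159, 244 and 229 in pair-fed and at 567, 511, 790 and 600 in EtOH-fed mice, without overlap (log2 fold change 1.51, adjusted p = 0.000278).

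Of 29 genes for collagens and their modifying enzymes, 21 rose and 1 fell, with a median of 0.93 (20 and 1 without the library labelled EtOH-fed mouse 1). The fibrillar collagen *Col1a1* was at 1661, 1472, 1284, 2342 and 1162 in pair-fed and at 3256, 3903, 8331 and 4083 in EtOH-fed mice, so that every EtOH-fed mouse was above the highest pair-fed mouse (log2 fold change 1.57, standard error 0.25, adjusted p = 0.000696). *Col3a1* rose by 1.22, and the basement membrane collagens *Col4a1* and *Col4a2* by 1.41 and 1.43 (adjusted p = 0.00234, 0.000152 and 0.000123). The crosslinking enzyme *Loxl2* rose by 1.76 (adjusted p = 9.65e-05). Of 12 metalloproteinases and inhibitors, 7 rose. *Timp1*, the inhibitor most linked with fibrosis, was at 23, 11, 28, 38 and 29 in pair-fed and at 37, 93, 229 and 158 in EtOH-fed mice (log2 fold change 2.10, standard error 0.50, adjusted p = 0.00864). These are low values, in which the EtOH-fed value of 37 in the library labelled mouse 1 lay among the pair-fed values, and the fit on estimated reads (voom) gave an adjusted p of 0.0674. The gelatinase *Mmp2* rose by 1.37 and *Timp2* by 0.99 (adjusted p = 0.000472 and 0.00249).

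Matricellular and adhesion genes rose in 17 of 25 and fell in 1, with a median of 1.08. *Sparc* was at 2760, 3103, 2326, 3280 and 3040 in pair-fed and at 5898, 4989, 9707 and 6598 in EtOH-fed mice (log2 fold change 1.19, adjusted p = 0.000262), and *Fbln2*, a basement membrane glycoprotein, rose by 2.64 (adjusted p = 0.000469). Fibronectin (*Fn1*), most of which hepatocytes secrete into plasma, was the member that fell (−0.38, adjusted p = 0.0376, and 0.0514 to 0.106 without any one of pair-fed mice 1, 2 and 5 and EtOH-fed mice 2 and 5). In plasminogen activation, 5 of 9 genes rose and 2 fell. The activators *Plat* and *Plau* rose by 1.68 and 1.35 (adjusted p = 0.00475 and 0.00668), and plasminogen (*Plg*) and its inhibitor *Serpinf2*, both hepatocyte products, fell by 0.44 and 0.45 (adjusted p = 0.0358 and 0.00675). The call of *Plg* was lost without pair-fed mouse 1, 2, 3 or 4 or EtOH-fed mouse 4 or 5 (adjusted p = 0.0624 to 0.12) and with all 4 groups in the fit (0.193). *Anxa2*, the surface partner of S100A10 that binds plasminogen, was at 588, 438, 473, 725 and 615 in pair-fed and at 981, 1263, 2964 and 1480 in EtOH-fed mice (log2 fold change 1.45, adjusted p = 0.00147).

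Macrophage genes rose in part. Kupffer cells are the resident macrophages of the sinusoids, and 6 of their 14 markers rose while none fell. Their summed values overlapped between the groups, at 16685 to 28989 in pair-fed and 22578 to 39136 in EtOH-fed mice. *C1qb*, a chain of complement C1q, was at 1141, 989, 1056, 1706 and 1753 in pair-fed and at 2746, 1785, 2845 and 2545 in EtOH-fed mice (log2 fold change 0.92, standard error 0.19, adjusted p = 0.00378). The Kupffer lectin *Clec4f* rose by 0.94 and the complement receptor *Vsig4* by 0.91 (adjusted p = 0.00254 and 0.00638), whereas *Timd4* and *Marco* had log2 fold changes of 0.79 and 0.45 and did not pass (adjusted p = 0.106 and 0.615). Without pair-fed mouse 5 *Timd4* passed (1.13, adjusted p = 0.00273). Of 21 markers of macrophages and monocytes in general, 9 rose and none fell, with summed values of 8927 to 16386 in pair-fed and 14564 to 23426 in EtOH-fed mice. The lysosomal marker *Cd68* was at 300, 248, 249, 337 and 379 in pair-fed and at 595, 508, 585 and 546 in EtOH-fed mice (log2 fold change 0.90, adjusted p = 0.00105). The growth factor receptor *Csf1r* rose by 0.77 and lysozyme (*Lyz2*) by 0.88 (adjusted p = 0.0132 and 0.0038), and *Adgre1*, a general macrophage marker, had a log2 fold change of 0.43 (adjusted p = 0.352). Of 12 markers of lipid-associated macrophages 7 rose, among them *Mmp12* (1.96, adjusted p = 0.000574), and *Trem2* and *Gpnmb* did not pass (0.87 and 0.63, adjusted p = 0.0551 and 0.415). *Trem2* passed without pair-fed mouse 2 (0.0278) or EtOH-fed mouse 5 (0.0243) and with voom (0.0233). Of 15 genes of efferocytosis, the uptake of dying cells, 8 rose and 2 fell. *Axl*, a receptor for apoptotic cells, was at 732, 826, 736, 978 and 1069 in pair-fed and at 1629, 1494, 2325 and 1573 in EtOH-fed mice (log2 fold change 1.01, standard error 0.15, adjusted p = 0.000506).

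Of 28 genes of endotoxin sensing, NF-kappaB and the inflammasome, 8 rose and 2 fell, and with median-of-ratios size factors 3 rose and 3 fell. The endotoxin co-receptor *Cd14* was at 212, 95, 132, 302 and 193 in pair-fed and at 409, 327, 520 and 365 in EtOH-fed mice (log2 fold change 1.20, adjusted p = 0.00801). *Tnf*, *Il1b* and *Tlr4* had log2 fold changes of 2.05, 0.32 and 1.19 and did not pass (adjusted p = 0.129, 0.667 and 0.0817). *Tnf*, a scarce transcript, passed without pair-fed mouse 4 (2.86, adjusted p = 0.0212), and *Tlr4* with all 4 groups in the fit (0.0395). Of 27 chemokine genes 7 rose and 3 fell. The monocyte-attracting *Ccl6* rose by 1.47, *Cxcl1*, a neutrophil attractant, fell by 1.36 (adjusted p = 0.000157 and 0.0036), and *Ccl2* had a log2 fold change of 0.77 (adjusted p = 0.273). The adjusted p of *Cxcl1* was 0.103 with all 4 groups in the fit. Interferon-stimulated genes rose in 9 of 42 and fell in 1, with a median of 0.20, or of 0.08 with median-of-ratios size factors. Of this list 21.4% rose, near the 16.3% of all genes. The antiviral genes *Oas3* and *Ifit2* rose by 1.26 and 1.40 (adjusted p = 0.00282 and 0.00201), and *Isg15* and *Ifit1* had log2 fold changes of 0.30 and 0.05 (adjusted p = 0.231 and 0.892). In antigen presentation 6 of 22 genes rose (27.3%, against 16.3% of all genes) and 1 fell (4.55%, against 6.92%). *Cd74*, the class II chaperone, was at 2195, 1428, 1703, 2689 and 1800 in pair-fed and at 2642, 3339, 6624 and 3672 in EtOH-fed mice (log2 fold change 1.0, adjusted p = 0.0075), and *H2-Aa* rose by 0.93 (adjusted p = 0.0144). The class I genes *H2-K1* and *B2m* were chosen for this contrast after their values were seen and had log2 fold changes of −0.04 and −0.04 (adjusted p = 0.871 and 0.849).

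Of 10 neutrophil markers in the table (21 were written), 2 rose (20%, near the 16.3% of all genes) and 1 fell (10%, against 6.92%). Only 1 rose without the library labelled EtOH-fed mouse 1, where the median was 0.24 against 0.59, and with median-of-ratios size factors 1 rose. *S100a8* and *S100a9* had log2 fold changes of −0.39 and 0.67 (adjusted p = 0.689 and 0.42). Of 21 lymphocyte markers 4 rose (19%, near the 16.3% of all genes), *Cd4*, *Ighm*, *Igkc* and *Jchain*, of which the last 3 belong to B and plasma cells, and *Cd4* did not pass without pair-fed mouse 1, 3 or 5 or EtOH-fed mouse 2, 4 or 5 (adjusted p = 0.0505 to 0.13), with median-of-ratios size factors (0.0616) or with voom (0.189). *Igkc* was at 463, 126, 647, 349 and 278 in pair-fed and at 448, 1306, 3238 and 1919 in EtOH-fed mice (log2 fold change 2.08, standard error 0.51, adjusted p = 0.01). *Cd3e* had a log2 fold change of 0.02 (adjusted p = 0.985). Erythroid markers rose in 3 of 6, all globin genes, and none passed without the library labelled EtOH-fed mouse 1. *Hbb-bs* was at 2373, 820, 1338, 3113 and 4362 in pair-fed and at 8304, 3666, 3615 and 10224 in EtOH-fed mice (log2 fold change 1.5, adjusted p = 0.0234, and 0.0551 to 0.0876 without pair-fed mouse 3, the library labelled EtOH-fed mouse 1 or EtOH-fed mouse 5). Of 15 biliary and progenitor markers 4 rose, including the keratins *Krt8* and *Krt18* of hepatocytes and ducts (1.08 and 0.84, adjusted p = 0.000299 and 0.000198), and *Krt19* of ducts (1.32, adjusted p = 0.0303). *Krt19* did not pass without pair-fed mouse 2, 3 or 5 or EtOH-fed mouse 4 or 5 (adjusted p = 0.0553 to 0.0866). *Epcam* had a log2 fold change of −0.33 (adjusted p = 0.391).

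Cell cycle genes rose in 9 of 40 (22.5%) and fell in 3 (7.5%), near the 16.3% and 6.92% of all genes. The inhibitor *Cdkn1a*, a target of p53, was at 239, 221, 142, 273 and 220 in pair-fed and at 897, 2659, 450 and 1219 in EtOH-fed mice, without overlap (log2 fold change 2.31, standard error 0.37, adjusted p = 0.000808). *Mki67*, a marker of dividing cells, rose by 1.12 (adjusted p = 0.0142), and the S-phase genes *Tk1* and *Mcm10* fell by 1.81 and 0.86 (adjusted p = 9.9e-05 and 0.000291). *Ccnd1* had a log2 fold change of −0.31 (adjusted p = 0.265). Of 27 lysosomal genes 13 rose and none fell, with *Ctsl* at a rise of 1.57 and *Grn* of 0.68 (adjusted p = 1.24e-05 and 0.000751), and 8 rose and 1 fell with median-of-ratios size factors. Of 20 immediate early genes 4 rose (20%, near the 16.3% of all genes) and 4 fell (20%, against 6.92%). Among them were *Klf6* (1.18, adjusted p = 0.000472) and *Zfp36* (−1.14, adjusted p = 0.000161). None of 52 respiratory chain subunits passed, with a median of −0.05, and 3 of 58 cytosolic ribosomal protein genes rose, with a median of 0.11. With median-of-ratios size factors 3 of the former fell, and the latter had no call and a median of −0.02.

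The response was then compared with that of WT mice by the interaction of diet and genotype over 18 mice, which asks how the effect of ethanol differs between the genotypes. In WT mice 6.19% of all genes rose and 6.52% fell. The difference was called in 428 genes (2.84%), of which 392 had a more positive and 36 a more negative log2 fold change in *Apoe* KO mice. Across all genes, the log2 fold changes in the KO and WT mice had a Pearson r of 0.382, as a description over genes that are not independent. Of the 2446 genes that rose in KO mice, 644 also rose in WT mice (26.3% of the KO and 69.2% of the WT rises), and of the 1042 that fell, 392 also fell (37.6% and 40%). Of the 392 genes with a more positive response, 298 had risen in KO mice and 133 had fallen in WT mice, and 53 had done both. With median-of-ratios size factors, the counts were 294 and 84. More positive differences were called in 246 genes without pair-fed mouse 3, 206 without EtOH-fed mouse 4 and 229 without EtOH-fed mouse 5, and in 445 without the library labelled EtOH-fed mouse 1. More negative ones were called in 20 genes without pair-fed mouse 1 or 3, 23 without EtOH-fed mouse 5 and 34 without the library labelled EtOH-fed mouse 1.

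**Figure D4:**
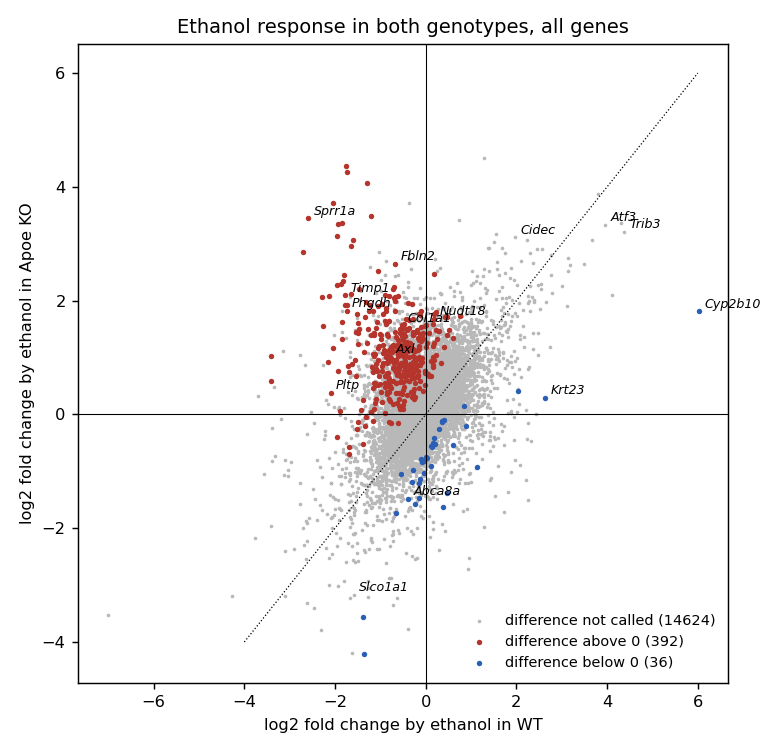
Each point is 1 of 15052 genes, with the log2 fold change by ethanol in WT mice on the x axis and in *Apoe* KO mice on the y axis. Red points are the 392 genes and blue points the 36 genes whose difference between genotypes was called, and points on the dotted line have equal changes in both. Of the red points, 348 lie in the upper left, where the log2 fold change is above 0 in KO and below 0 in WT mice.

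The interaction was called in 3 of 43 genes of the unfolded protein and integrated stress response, *Hsp90b1*, *Creld2* and *Phgdh*, all of them more positive in KO mice and named here after their values were seen. *Phgdh*, the first enzyme of serine synthesis, had a log2 fold change of 1.82 in KO and −1.75 in WT mice (difference 3.57, adjusted p = 0.00627). With median-of-ratios size factors the differences of *Creld2* and *Hsp90b1* did not pass (adjusted p = 0.0793 and 0.102), and that of *Creld2* also not without pair-fed mouse 1, 3 or 4, EtOH-fed mouse 2 or 5 or the library labelled EtOH-fed mouse 1 (0.0503 to 0.0954). For *Atf3* the log2 fold changes were 3.33 and 3.96 (difference −0.63, adjusted p = 0.771), and for *Trib3* 3.21 and 4.37 (difference −1.16, adjusted p = 0.222). Both were past the threshold in either genotype. None of the 23 sinusoidal endothelial markers had a called difference, and 12 of them rose in WT mice, where 6.19% of all genes rose. In cholesterol synthesis 1 of 25 genes had one, and 20 fell in WT mice, where 6.52% of all genes fell. The difference was called in 2.84% of all genes, so that lists of these sizes would hold few or no calls at that share.

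More positive responses in KO mice were called in 2.6% of all genes. Among 21 markers of macrophages and monocytes, 12 had a called difference, and all were more positive in KO mice, where 9 rose, than in WT mice, where 9 fell. The same held for 8 of 14 Kupffer cell markers, with 6 risen in KO and 6 fallen in WT mice. Among 22 genes of antigen presentation 7 were called, with 6 risen in KO and 10 fallen in WT mice. Among 42 interferon-stimulated genes 8 were called, with 9 risen in KO and 14 fallen in WT mice. Of all genes 16.3% rose in KO and 6.52% fell in WT mice. *Cd74* had log2 fold changes of 1.0 and −0.77 (difference 1.77, adjusted p = 0.00571). In EtOH-fed WT mice its values were 1647, 1884, 1530, 2273 and 1956, and in pair-fed WT mice 3192, 3177, 2310 and 4179, so that the KO and WT mice moved in opposite directions. *Oas3* was 144, 131, 160 and 136 in pair-fed and 41, 56, 47, 109 and 52 in EtOH-fed WT mice (difference 2.56, adjusted p = 0.00298).

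In the collagen list 10 of 29 genes had a called difference and all were more positive in KO mice. Of this list 21 rose in KO and 1 in WT mice, against 16.3% and 6.19% of all genes. *Col1a1* had log2 fold changes of 1.57 and −0.51 (difference 2.08, adjusted p = 0.0113). *Timp1* was 46, 100, 47 and 138 in pair-fed and 12, 13, 17, 43 and 33 in EtOH-fed WT mice (difference 3.88, adjusted p = 0.00714), and every pair-fed WT value lay above the pair-fed KO values. *Sparc* (1.19, adjusted p = 0.0108) and *Anxa2* (1.67, adjusted p = 0.0113) differed in the same direction. Of 20 stellate cell markers 2 were called, *Timp1* and *Vim*, the second named after its values were seen, and *Lrat* and *Des* were not (differences 0.34 and 0.97, adjusted p = 0.64 and 0.107).

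The 5 genes with the lowest p for a more positive response were *Pltp*, *Axl*, *Sprr1a*, *Nudt18* and *Oas3*. *Pltp*, the phospholipid transfer protein gene, was 2564, 2185, 2196 and 2552 in pair-fed and 547, 627, 436, 613 and 566 in EtOH-fed WT mice, and 713, 777, 708, 1112 and 1025 and 1298, 919, 1101 and 1146 in the KO groups. It fell in WT mice (−2.09, adjusted p = 1.71e-06) and did not pass in KO mice (0.38, adjusted p = 0.0933, and 0.0402 without pair-fed mouse 4), and the difference was 2.47 (adjusted p = 1.07e-06). *Axl* fell in WT mice (−0.78, adjusted p = 0.00183) and rose in KO mice, with a difference of 1.79 (adjusted p = 0.000148). *Nudt18*, a nucleotide hydrolase gene, was at 356, 368, 309, 421 and 345 in pair-fed and at 1375, 1060, 1138 and 1061 in EtOH-fed KO mice (log2 fold change 1.68, adjusted p = 4.45e-06), with a difference of 1.5 (adjusted p = 0.00172).

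The 5 with the lowest p for a more negative response were *Abca8a*, *Pcp4l1*, *Akr1c6*, *Coq8a* and *Sord*, and all 5 fell in KO mice. *Abca8a*, a transporter gene, was at 2419, 3521, 3385, 2629 and 3016 in pair-fed and at 1230, 1060, 1044 and 923 in EtOH-fed KO mice, and at 1936, 1576, 2213 and 1383 and 1512, 1471, 984, 1394 and 1377 in the WT groups (difference −1.09, adjusted p = 0.00973). *Akr1c6*, a steroid dehydrogenase gene, was at 30169, 30949, 30450, 29989 and 31918 in pair-fed and at 14776, 16408, 16208 and 15257 in EtOH-fed KO mice, with little spread in either group. Its log2 fold change was −0.97 in KO and −0.28 in WT mice (difference −0.69, adjusted p = 0.0117). *Sord* and *Coq8a*, which act in sorbitol oxidation and in coenzyme Q synthesis, fell by 0.82 and 0.84 in KO mice (adjusted p = 0.000187 and 0.000148). *Cyp2b10* rose in WT mice (6.02, adjusted p = 2.63e-05), and its response was smaller in KO mice (difference −4.21, adjusted p = 0.0344). *Plin2* had log2 fold changes of 1.21 in KO and 0.17 in WT mice (difference 1.04, adjusted p = 0.0189). *Srebf1* fell in KO mice (−1.73) and did not pass in WT mice (−0.65, adjusted p = 0.0645), with a difference of −1.08 (adjusted p = 0.0469). Leaving out any one of 5 KO mice ended the call for *Cyp2b10*, pair-fed 1, 3 or 4 or EtOH-fed 1 or 4 (adjusted p = 0.0549 to 0.0645). That of *Srebf1* was lost without pair-fed mouse 1, 3 or 4 or any EtOH-fed mouse (0.0625 to 0.0859), and that of *Plin2* with median-of-ratios size factors (0.0677).

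**Figure D5:**
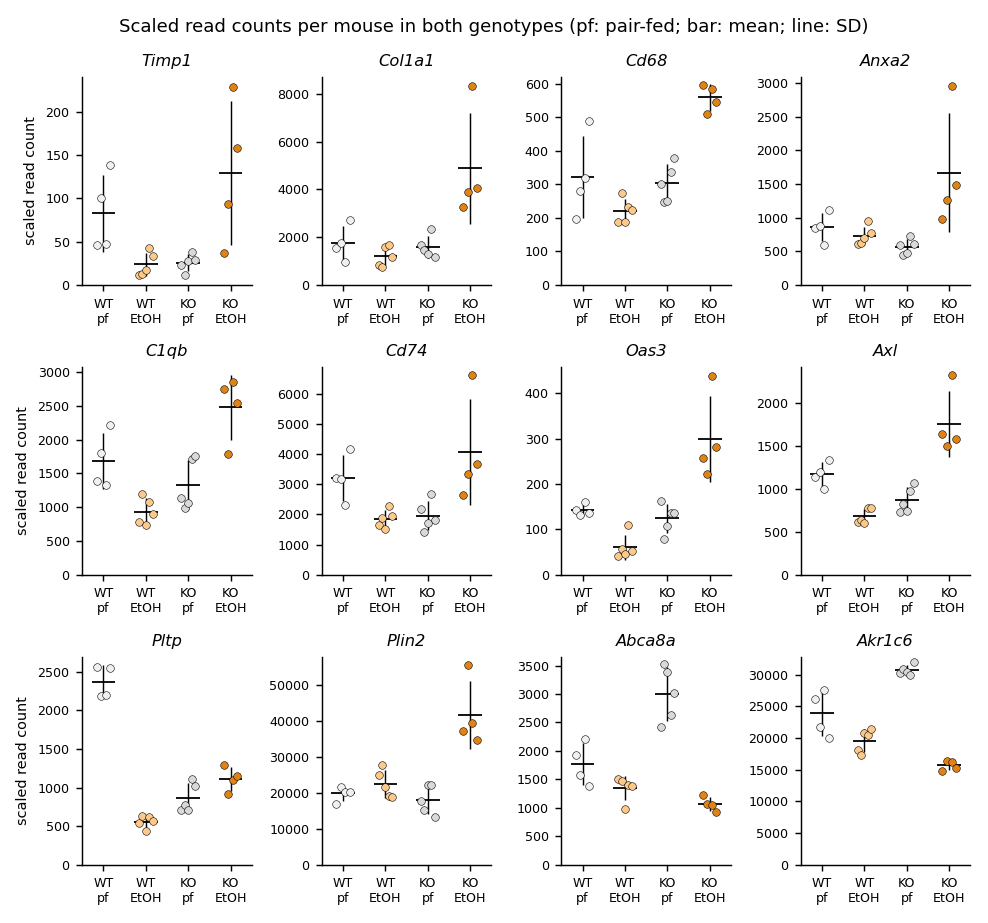
Scaled read counts in each mouse for 12 genes, with pair-fed WT (n = 4), EtOH-fed WT (n = 5), pair-fed *Apoe* KO (n = 5) and EtOH-fed *Apoe* KO mice (n = 4) from left to right on axes that start at 0, the mean as a horizontal bar and the SD as a vertical line. *Timp1*, *Cd68*, *C1qb*, *Cd74*, *Oas3* and *Axl* have higher means with ethanol in KO and lower means in WT mice, and *Abca8a* and *Akr1c6* have their highest mean in pair-fed KO mice.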

How the data were processed

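Liver RNA of 18 mice was sequenced. The submitters' processing notes name FastQC, Trimmomatic, HISAT2, SAMtools, featureCounts and GRCm38, with versions not given in the sources used here. The authors deposited 1 table of rounded read counts brought to almost the same total in each mouse, a signal rather than raw counts, and its comparison columns from DESeq2 (mean, fold change, standard error, statistic and p-values) were not used. Of 15247 lines, 195 repeated 1 of 56 genes on several lines, and 1 line per gene ID was kept (15052). Depth was estimated from the spacing of low values and could not be read for 1 pair-fed *Apoe* KO mouse and for EtOH-fed WT mice 2 and 5.

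Log2(value + 1) was fitted with limma 3.58.1 in R 4.3.3 (moderated test with a mean-variance trend, Benjamini-Hochberg over all genes, called at an adjusted p under 0.05) on the 9 *Apoe* KO mice, and on 18 mice for the interaction. In simulated counts for this comparison, 200 of 15052 genes were changed, all with a mean of at least 100, and every gene had a dispersion of 0.05. Of these, 87 of 100 genes changed 2-fold and 100 of 100 changed 4-fold were called, besides 7 unchanged genes. Changes in scarce or more variable genes were not simulated, so these rates do not carry over to them. The p-values measure the spread between these mice only. Named genes were the 10 largest changes each way with a mean of at least 100 and no overlap, the 3 lowest p each way and the first 4 symbols of each of 50 lists, and the 5 lowest p each way for the interaction, of which a few are not reported here. Members and lists were chosen with earlier results of these data known. For the *Apoe* KO response, alternatives were another scaling, pseudocounts of 0.1 and 10, filters at 10 and 100, all 4 groups and quality weights. Voom, a block on mouse number, removal of X and Y genes and each *Apoe* KO mouse left out were also run. For the interaction, only the other scaling, the pseudocount of 10, the filter at 10, the block and each KO mouse left out were run. No WT mouse was left out.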

Additional observations from a re-analysis of the deposited data

Results flagged for a closer look

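Single mice stood apart from their group in 21 of 386 groups of values examined, where about 1 in 20 (19 groups) is flagged by chance. The value given for each is the distance of that mouse from its nearest neighbour, divided by the range of the whole group. The library labelled EtOH-fed mouse 1 stood apart in *Apoe* (0.855, lowest), *Cd4* (0.833, lowest), *Eif2s3y* (0.866, highest), *Tfrc* (0.872, lowest) and *Xist* (0.917, lowest). EtOH-fed mouse 4 stood apart in *1700028E10Rik* (0.884, lowest), *Abcg8* (0.846, lowest), *Acot3* (0.859, lowest), *Col3a1* (0.840, highest) and *Sqle* (0.962, highest). EtOH-fed mouse 5 stood apart in *Nqo1* (0.937, highest). Pair-fed mouse 1 stood apart in *Cd4* (0.746, lowest) and *Insig1* (0.949, lowest). Pair-fed mouse 2 stood apart in *Adh1* (0.798, lowest), *B2m* (0.867, lowest), *Ighm* (0.797, lowest) and *Tff3* (0.845, highest). Pair-fed mouse 3 stood apart in *Lrat* (0.728, lowest). Pair-fed mouse 5 stood apart in *Clec4f* (0.734, highest) and *Plg* (0.759, lowest). On PC1 1 pair-fed mouse stood apart from the other pair-fed mice (0.723).

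The ethanol response differed between *Apoe* KO and WT mice in 53 of the genes named in the text (interaction of diet and genotype, limma, adjusted p under 0.05). The values are the log2 fold change in KO minus that in WT mice. For immune cells and antigen presentation they were above 0 in *Igkc* (2.89), *Jchain* (2.74), *Oas3* (2.56), *Ighm* (2.4), *Mmp12* (2.35), *Axl* (1.79), *H2-Aa* (1.78), *Cd74* (1.77), *C1qb* (1.76), *Cd14* (1.72), *Ifit2* (1.67), *Clec4f* (1.67), *Lyz2* (1.47), *Csf1r* (1.39), *Cd68* (1.38) and *Ccl6* (1.19). For matrix, its turnover and the cytoskeleton they were above 0 in *Acan* (4.69), *Timp1* (3.88), *Fbln2* (3.32), *Krt19* (3.18), *Vim* (2.47), *Plat* (2.13), *Col1a1* (2.08), *Loxl2* (1.91), *Plau* (1.84), *Col3a1* (1.7), *Anxa2* (1.67), *Col4a1* (1.53), *Col4a2* (1.36), *Sparc* (1.19) and *Timp2* (1.14). They were also above 0 in *Sprr1a* (6.04), *Phgdh* (3.57), *Pkm* (2.68), *Pltp* (2.47), *Hk1* (2.06), *Anxa1* (1.99), *Mki67* (1.73), *Scd2* (1.57), *Nudt18* (1.5), *Creld2* (1.3), *Plin2* (1.04), *S100a10* (0.93), *Anxa5* (0.74) and *Hsp90b1* (0.66). They were below 0 in *Abca8a* (−1.09), *Akr1c6* (−0.69), *Clec2h* (−2.19), *Coq8a* (−0.75), *Cyp2b10* (−4.21), *Pcp4l1* (−1.31), *Sord* (−0.77) and *Srebf1* (−1.08). A difference compares changes and not levels. *Sprr1a* was at 111 to 222 in pair-fed WT, 5 to 47 in pair-fed KO and 84 to 274 in EtOH-fed KO mice. *Pkm* was at 1195 to 2384, 499 to 1017 and 1379 to 5064 in the same groups. In *Nudt18* the pair-fed values overlapped, at 386 to 519 in WT and 309 to 421 in KO mice.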

How the results depend on the processing

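The numbers of higher and lower genes in *Apoe* KO mice stayed within 1.5 times the reported 2446 and 1042 under all alternatives except the scaling, where median-of-ratios size factors gave 1616 lower genes, since they set the median of all genes to 0. With a mean of at least 100, fewer genes were tested, and 446 rose and 165 fell by 2-fold or more. For the difference between genotypes, median-of-ratios size factors gave 84 more negative genes against 36. Leaving out each *Apoe* KO mouse in turn gave 1805 to 2406 higher and 806 to 1021 lower genes, 535 to 851 and 206 to 262 beyond 2-fold, 206 to 478 more positive and 20 to 35 more negative differences, and 38.8 to 43.9% of variance on PC1 against 38.2%. The lowest counts of differences came without pair-fed mouse 1 or 3 or EtOH-fed mouse 4 or 5, and the cause was not tested. Of 3803 values of the 192 named genes under alternatives, 3701 kept their direction and side of the threshold, 71 lost and 31 gained a call, and none of the called genes changed direction. 15 of the 140 called genes lost their call under at least 1 alternative: *Anxa11*, *Cd4*, *Cxcl1*, *Dlec1*, *Fn1*, *Gclm*, *Hamp*, *Hbb-bs*, *Krt19*, *Lcn2*, *Lrat*, *Plg*, *Shmt2*, *Tff3* and *Timp1*. Calls were gained by *Acta2*, *Canx*, *Cela1*, *Chac1*, *Cyp2b10*, *Cyp7a1*, *Fasn*, *Gclc*, *Pck1*, *Pltp*, *Srebf2*, *Tbx3*, *Timd4*, *Tlr4*, *Tnf* and *Trem2*. Of 53 named genes with a called difference, 14 lost it under at least 1 of the alternatives run for the interaction: *Acan*, *Ccl6*, *Clec2h*, *Creld2*, *Cyp2b10*, *Hsp90b1*, *Igkc*, *Mki67*, *Plat*, *Plin2*, *S100a10*, *Scd2*, *Srebf1* and *Timp2*. No WT mouse was left out among these alternatives, so the dependence of any difference on a single WT mouse was not examined. In the shallowest *Apoe* KO library with a depth estimate 1 read is worth 4.1 scaled counts. In pair-fed WT mouse 1, which enters the interaction, it is worth 5.76. These steps limit what can be said of genes with low values, for the difference between genotypes as well.

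The same mouse numbers occur in both diets, but the labels tie them to no shared litter, cage or day. Deviations from the group means correlated at 0.0195, −0.023, 0.0344 and 0.265 for numbers 1, 2, 4 and 5. Pairs with unlike numbers ran from −0.213 to 0.216, and number 5 lay above that range. Whether a number marks anything shared cannot be told from so few pairs. With the mouse number as a block, 1931 genes were higher and 841 lower, against 1831 and 806 in the same mice without the block, a comparison added after seeing the data. For the difference between genotypes the block gave 522 more positive and 53 more negative genes.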

Other observations

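Annexins bind membranes, and some of them pair with S100 proteins. Genes of both families, which are scarce in resting hepatocytes, rose in 6 of 17 and fell in 1 in *Apoe* KO mice. The counts were 7 and 1 without the library labelled EtOH-fed mouse 1. The median log2 fold change was 0.57, or 0.22 without that library. *S100a10*, the partner of annexin A2, rose by 1.40 and *Anxa5*, which binds phosphatidylserine, by 0.72 (limma, adjusted p = 2.57e-05 and 0.00128). *Anxa1* rose by 1.43 (adjusted p = 0.00323). *Anxa11* fell by 0.63 (adjusted p = 0.0271), and did not pass without pair-fed mouse 1, 2 or 4 or EtOH-fed mouse 4 or 5 (0.0584 to 0.0752). The response differed from that of WT mice in 7 of the 17 genes, against 2.84% of all genes, and all 7 were more positive in KO mice. None of the 17 rose in WT mice, where only 6.19% of all genes rose.

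Of 7 oncofetal genes (2 higher and none lower without that library) 1 rose, the desaturase *Scd2* (1.16, adjusted p = 0.00262), and 1 fell, the trefoil factor *Tff3* (−1.67, adjusted p = 0.0441). *Tff3* did not pass without pair-fed mouse 1, 2 or 3, EtOH-fed mouse 2 or 4 or the library labelled EtOH-fed mouse 1 (0.0596 to 0.106), and *Afp* had a log2 fold change of 0.25 (adjusted p = 0.584). Of 8 adipocyte markers 2 were in the table, *Cidec*, described above, and *Car3*, which fell by 0.77 (adjusted p = 0.00629). The other 6, *Adipoq*, *Plin1*, *Lep* and *Retn* among them, were absent, so *Cidec* and *Car3* are not read as a sign of adipocytes. Of 15 pancreas markers 1 was in the table, *Cela1*, with a log2 fold change of −0.68 (adjusted p = 0.0859), which passed as lower without EtOH-fed mouse 5 (0.0434) and with all 4 groups in the fit (0.0385). Of 4 sex-linked genes none passed, and 1 rose without the library labelled EtOH-fed mouse 1.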
